A study of Mus musculus with 8 samples.

Results

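Guanylate-binding proteins (GBPs) were followed through 8 genes of bone marrow-derived macrophages (BMDMs): Gbp2, Gbp3, Gbp5 and Gbp7 on mouse chromosome 3, and Gbp4, Gbp6, Gbp8 and Gbp9 on chromosome 5. The members were taken by name from 50615 rows of an expected-count table, and the 2 chromosomal clusters were set side by side. All 8 were among the 17625 genes that were tested. Gbp2b, Gbp10 and Gbp11, which carry the same family name, were not members and are given only by value.

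Control cells, from Ncoa6 fl/fl mice, carried floxed alleles of the transcriptional coactivator gene Ncoa6 without Cre (Ncoa6-sufficient, labelled WT). The knockout cells came from Ncoa6 fl/fl LysM CRE mice (Ncoa6-KO), in which Cre is driven from the lysozyme locus Lyz2, so that recombination takes place in myeloid cells. The labels give the strain of all samples as C57BL/6, the ages of the mice were not given in the sources used here, and all bone marrow was cultured for 6 days in M-CSF (20 ng/ml). The macrophages then stayed in medium alone or received LPS, the endotoxin of Gram-negative bacteria (4 h, 100 ng/ml), followed by monosodium urate (MSU) crystals (2 h, 200 µg/ml). There were 4 groups and 8 libraries in all, and the 2 libraries of a group came from different mice. Whether cultures in medium and under LPS + MSU shared a mouse was not given in the sources used here.

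GBPs are large GTPases whose genes are switched on by interferons. In macrophages they assemble on vacuoles that hold pathogens and on bacteria in the cytosol, and they promote inflammasome responses to bacterial products. Their promoters are known to carry elements read by the transcription factors downstream of interferon receptors, the interferon-stimulated response element (ISRE) and the gamma-activated site (GAS).

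Promoter letters are shown for the chromosome 3 members, the 4 for which they were read. RefSeq promoters on GRCm38.p6 were found for Gbp2, Gbp3, Gbp5 and Gbp7, each with 250 bases before and 50 after a transcription start, and Gbp3 had 2 such promoters. The 250 bases before the start are printed 5′ to 3′ on the plus strand, with matches to ISRE letters (GAAANNGAA) or GAS letters (TTCNNNGAA) on either strand in capitals. Gbp5 is printed from chr3:142496684-142496933, Gbp7 from chr3:142530086-142530335, the first promoter of Gbp3 from chr3:142559794-142560043 and Gbp2 from chr3:142620413-142620662.
Gbp5: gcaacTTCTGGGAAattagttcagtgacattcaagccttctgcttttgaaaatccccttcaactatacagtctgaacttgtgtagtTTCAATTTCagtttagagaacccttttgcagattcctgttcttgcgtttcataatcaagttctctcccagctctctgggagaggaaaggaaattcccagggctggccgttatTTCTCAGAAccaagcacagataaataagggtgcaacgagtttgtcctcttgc
Gbp7: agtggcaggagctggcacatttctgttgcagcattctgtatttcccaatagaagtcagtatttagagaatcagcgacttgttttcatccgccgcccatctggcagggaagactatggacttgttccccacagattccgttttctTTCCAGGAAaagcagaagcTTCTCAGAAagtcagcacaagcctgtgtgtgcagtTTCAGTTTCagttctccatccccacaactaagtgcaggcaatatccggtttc
Gbp3: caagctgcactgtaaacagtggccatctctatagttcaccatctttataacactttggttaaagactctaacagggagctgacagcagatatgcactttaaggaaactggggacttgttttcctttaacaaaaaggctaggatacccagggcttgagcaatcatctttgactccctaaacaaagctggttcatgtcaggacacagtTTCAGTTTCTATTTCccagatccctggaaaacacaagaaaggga
Gbp2: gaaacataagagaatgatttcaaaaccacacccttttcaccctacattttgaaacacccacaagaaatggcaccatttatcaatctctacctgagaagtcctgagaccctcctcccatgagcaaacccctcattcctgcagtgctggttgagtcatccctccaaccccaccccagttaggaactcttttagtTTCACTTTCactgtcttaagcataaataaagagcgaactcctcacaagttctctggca

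All 4 genes had ISRE letters in at least 1 promoter, and 8.56% of the 32851 promoters in the table did. The match began 164 bases before the start in Gbp5, 52 in Gbp7 and 58 in Gbp2, and the first Gbp3 promoter held 2 overlapping matches, 44 and 38 bases before. Each of the 4 genes also matched when 1 further A was required, a stricter form that 3.44% of promoters held. GAS letters were found 2 times each in Gbp5 and Gbp7 and in neither Gbp2 nor Gbp3, against 8.30% of all promoters. Letters of an NF-kB motif (GGGANNTTC), the element of the main LPS-activated factor, were found in Gbp5 and Gbp2 and in 3.94% of promoters. The NF-kB matches of Gbp5 began 203 and 76 bases before the start. That of Gbp2 began after the start, outside the printed bases. The second Gbp3 promoter held none of these motifs. These are matches of letters in windows of 300 bases and not measured binding. The promoters of Gbp4, Gbp6, Gbp8 and Gbp9 were not analysed here.

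The chromosome 3 members lie on the plus strand of GRCm38 in the order Gbp5 (chr3:142493978-142522344), Gbp7 (chr3:142530342-142550149), Gbp3 (chr3:142560026-142573209) and Gbp2 (chr3:142620602-142638008), with Gbp2b between the last 2. The chromosome 5 members lie on the minus strand. Gbp8 (chr5:105014150-105139540), Gbp9 (chr5:105077630-105139539) and Gbp4 (chr5:105115767-105139586) overlap on that strand, and Gbp6 (chr5:105270702-105293698) lies apart from them. Counts of overlapping and similar genes can be split uncertainly. Of the 100-base stretches of its transcripts, Gbp6 shared 64.5% with another gene, 59.0% with Gm43302, an overlapping gene whose expected count was at most 31.5 in any library. Gbp7 shared 10.01%, mainly with Gm43802, a pseudogene inside it. The other 6 members shared between 0% (Gbp2) and 4.39% (Gbp8).

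The libraries held 25281955 to 33673552 expected counts. In medium, the targeted gene Ncoa6 was at 1515 and 1405 normalized counts in Ncoa6-sufficient and at 784 and 622 in Ncoa6-KO cells, a log2 fold change of -1.05 (SE 0.117, edgeR adjusted p = 0.00236). Under LPS + MSU it had 1297 and 1173 against 563 and 526 (-1.18, SE 0.124, adjusted p = 0.00189). The groups did not overlap in either condition, so the labels and the targeted gene went together, with the count of the gene reduced rather than lost. The paper describes loxP sites around only part of the gene. Counts over the whole gene do not separate transcripts with and without that part, so the intact transcript was not measured. Without sufficient library 1 of medium, Ncoa6 in medium did not pass (-0.996, adjusted p = 0.0578). The macrophage genes Csf1r, Cd68 and Adgre1 were at 21095 normalized counts or more in every library. Itgam had 20237 and 22738 in sufficient and 15769 and 16612 in Ncoa6-KO libraries of medium. Under LPS + MSU it had 22323 and 25290 against 15793 and 17686 and was called lower (-0.51, edgeR adjusted p = 0.0412). Mertk lay between 1897 and 8251. All 6 macrophage markers, Lyz2 among them, had lower estimates in Ncoa6-KO cells in both conditions. Lyz2, the locus that carries Cre, had 111993 to 129385 in the 4 Ncoa6-KO libraries and 209893 to 272098 in the others. Of the 6 T and NK cell markers, Cd3e, Cd3d, Cd8a, Ncr1 and Klrb1c had at most 3 counts in any library. The stromal genes Col1a1, Col1a2 and Dcn summed to 122 and 188 normalized counts in Ncoa6-KO libraries 1 of medium and of LPS + MSU, and to 352 to 759 in the other 6 libraries.

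In resting cells the whole family was low and its members were far apart in level. Levels between genes were compared as normalized counts per kilobase of the longest coding transcript, given as mean ± SD (n = 2). In Ncoa6-sufficient BMDMs in medium, Gbp2 stood highest at 355 ± 72.1 per kilobase, followed by Gbp3 at 190 ± 38.8, Gbp9 at 166 ± 9.14, Gbp7 at 78.0 ± 0.985, Gbp5 at 64.0 ± 0.516, Gbp6 at 48.3 ± 9.50, Gbp8 at 18.7 ± 0.273 and Gbp4 at 3.25 ± 0.311. Among neighbours in this order, only the libraries of Gbp3 and Gbp9 overlapped. In Ncoa6-KO cells the order was the same except that Gbp6 (23.2 ± 13.7) and Gbp5 (22.7 ± 9.74) changed places, and there the libraries of Gbp3 and Gbp9, of Gbp7 and Gbp6, and of Gbp6 and Gbp5 overlapped. The 8 genes together took 0.0134% and 0.0115% of all counts in the sufficient libraries and 0.00686% and 0.00416% in the Ncoa6-KO libraries.

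**Figure D1:**
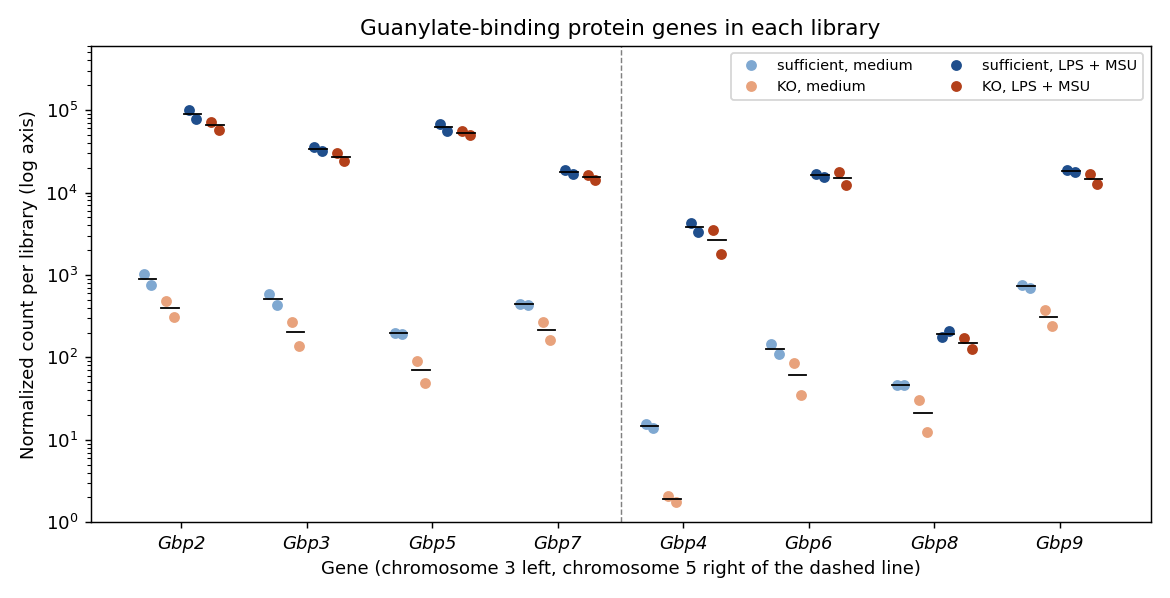
Normalized count of each member in each of the 8 libraries, on a log axis. Points are libraries and black lines are means of 2. In medium every Ncoa6-KO point lies below both sufficient points of its gene, and under LPS + MSU all members except Gbp8 lie at 1790 or above, with the genotypes close together. The share of all tested genes whose genotypes do not overlap in medium was not computed.

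The first question was whether the family differed between the genotypes in resting cells. All 8 members were lower in Ncoa6-KO than in Ncoa6-sufficient BMDMs in medium, and for 5 of them, Gbp2, Gbp3, Gbp5, Gbp7 and Gbp9, the difference passed the test (edgeR quasi-likelihood test, Benjamini-Hochberg adjusted p under 0.05 over all tested genes). Over all tested genes, 1.3% were called lower in this comparison. The median log2 fold change of the 8 members was -1.20, and that of all tested genes was -0.03. For each of the 8 the libraries of the genotypes did not overlap, but the share of all tested genes without overlap was not computed. Because these are bulk cultures, fewer cells that express a gene and less RNA per cell cannot be told apart. All Ncoa6-KO mice carried Cre at the Lyz2 locus and no control mice did. Effects of Cre, of that locus and of the Ncoa6 deletion therefore cannot be told apart in either condition.

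Gbp5, which has been linked to assembly of the NLRP3 inflammasome, had 197 and 194 normalized counts in the sufficient libraries and 90.4 and 48.3 in the Ncoa6-KO libraries. Its level was thus 2.77-fold lower in Ncoa6-KO cells, a log2 fold change of -1.47 (SE 0.231, adjusted p = 0.0132). Both knockout libraries lay under both controls, and the controls lay closer to each other than the knockouts did.

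Gbp2, which is anchored to membranes by a lipid tail as Gbp5 is, had 1022 and 766 normalized counts in sufficient and 484 and 308 in Ncoa6-KO libraries (log2 fold change -1.17, SE 0.227, adjusted p = 0.0301). Gbp3 had 582 and 435 against 267 and 138 (-1.32, SE 0.254, adjusted p = 0.0298). Neither gene overlapped between the genotypes, and in both, replicate 2 was the lower library of each genotype.

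Gbp7, which has been linked to assembly of the phagocyte NADPH oxidase, had 442 and 434 normalized counts in sufficient and 268 and 164 in Ncoa6-KO libraries (log2 fold change -1.01, SE 0.187, adjusted p = 0.0250). This was the smallest log2 fold change of the 8, a 2.01-fold lower level. Gm43802, the pseudogene with which Gbp7 shares sequence, had at most 10.6 normalized counts in any medium library.

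Of the chromosome 5 members, Gbp9 passed the test. It had 754 and 698 normalized counts in sufficient and 378 and 241 in Ncoa6-KO libraries (log2 fold change -1.22, SE 0.193, adjusted p = 0.0135). Gbp6 had 143 and 108 against 85.5 and 35.1 (-1.02, SE 0.330, adjusted p = 0.180). Gbp8 had 46.5 and 45.6 against 30.5 and 12.3 (-1.06, SE 0.345, adjusted p = 0.187). For Gbp6 and Gbp8 the groups did not overlap, but the 2 Ncoa6-KO libraries differed by more than 2-fold from each other and the estimate did not pass.

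Gbp4 was the rarest transcript of the 8. It had 15.8 and 13.8 normalized counts in sufficient and 2.11 and 1.76 in Ncoa6-KO libraries, which rest on 37 counts in the controls and 5 in the knockouts. The ratio of these counts, scaled to library size, was 7.64-fold in favour of the controls, with an exact 95% interval of 2.997 to 24.9 that covers counting error only. The edgeR adjusted p was 0.238, and DESeq2 called the gene (adjusted p = 0.00331). Without library 1 or library 2 of the stimulated Ncoa6-KO group, edgeR called it too (adjusted p = 0.0383 and 0.0417).

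The clusters were close in the size of the difference. All 4 chromosome 3 members and 1 of the 4 chromosome 5 members were called lower, but the median log2 fold changes were -1.24 and -1.14. The SEs of the log2 fold changes were 0.187 to 0.254 on chromosome 3 and 0.193 to 1.02 on chromosome 5. A difference in effect between the clusters was not tested. The sum of the chromosome 3 members was 2.34 and 2.11 times that of the chromosome 5 members in the sufficient libraries and 2.24 and 2.27 times in the Ncoa6-KO libraries, so that the genotypes overlapped in this balance.

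The calls in medium rested on few libraries. Without sufficient library 1 or sufficient library 2 the calls of the members were lost, as were most calls over all tested genes. The cluster medians in these fits ran from -1.42 to -1.04. Without Ncoa6-KO library 2, which was the lower one for every member, the medians were -0.91 on chromosome 3 and -0.76 on chromosome 5. Without Ncoa6-KO library 1 they were -1.71 and -1.87, with Gbp6 at -1.84 and Gbp8 at -1.89. With 2 libraries against 2, an exact two-sided permutation test of a single gene cannot go below p = 0.333. Several marker sums also differed by genotype in medium. The endothelial markers Cdh5 and Kdr, of which Kdr gave most of the counts, summed to 523 and 698 normalized counts in sufficient and 371 and 360 in Ncoa6-KO libraries. The T and NK markers, nearly all from Cd4, which macrophages can express, summed to 111 and 75.7 against 73.7 and 30.7. Their part in the result was not tested.

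**Figure D2:**
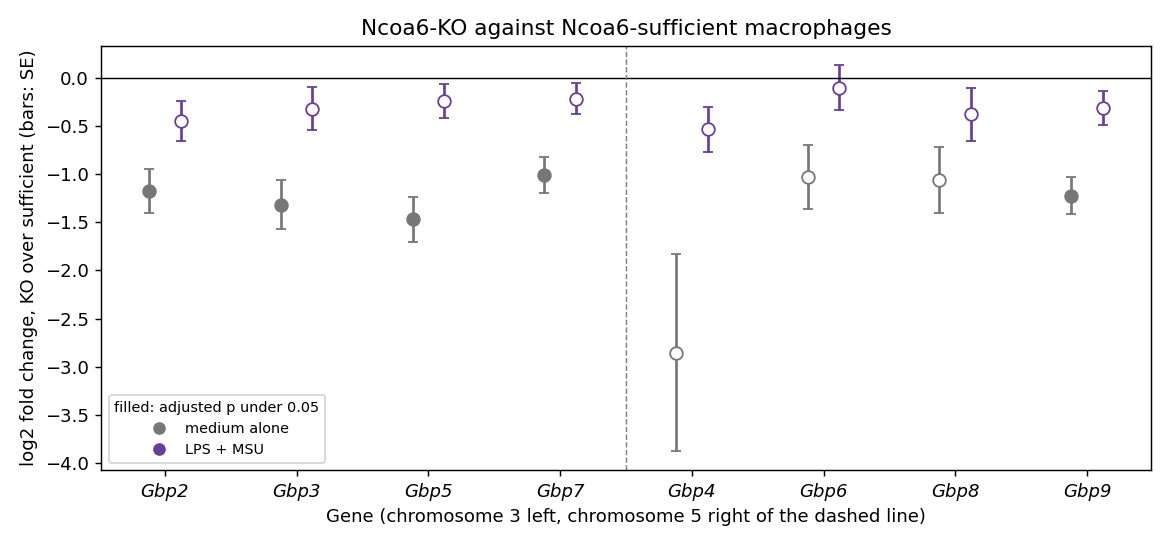
log2 fold change of each member, Ncoa6-KO over Ncoa6-sufficient, in medium and under LPS + MSU. Bars are SEs from the edgeR fit and filled points passed the adjusted p of 0.05. The points for medium lie at -1.01 or lower, and those for LPS + MSU lie between -0.53 and -0.10.

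LPS + MSU raised every member in both genotypes. In Ncoa6-sufficient BMDMs 8 of 8 members were called higher, where 24.7% of all tested genes were, with a median log2 fold change of 6.34 on chromosome 3 and 5.82 on chromosome 5, against -0.12 over all tested genes. In Ncoa6-KO BMDMs 8 of 8 were called higher, where 25.2% of all tested genes were, with medians of 7.20 and 6.75 against -0.07. The members together came to 0.679% and 0.594% of all counts in sufficient and 0.583% and 0.490% in Ncoa6-KO libraries.

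Gbp5 went from 197 and 194 normalized counts in medium to 66911 and 56424 under LPS + MSU in sufficient cells, a 315-fold rise (log2 fold change 8.30, SE 0.247, adjusted p = 8.96e-10). In Ncoa6-KO cells it went from 90.4 and 48.3 to 55150 and 49560, a 740-fold rise (9.53, SE 0.265, adjusted p = 5.36e-10). Among all 17625 tested genes, the rise of Gbp5 ranked 53rd in sufficient and 24th in Ncoa6-KO cells by log2 fold change.

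Gbp2 reached 99266 and 78246 normalized counts in sufficient and 72346 and 58028 in Ncoa6-KO cells, log2 fold changes over medium of 6.63 (SE 0.271) and 7.36 (SE 0.282). Gbp3 reached 35311 and 32237 against 30007 and 24184 (6.05, SE 0.282, and 7.05, SE 0.298). Gbp7 reached 18535 and 16948 against 16401 and 14290 (5.34, SE 0.200, and 6.14, SE 0.210). Every stimulated library of these 3 genes lay more than an order of magnitude above every library in medium. Gm43802 rose with Gbp7, to between 368 and 459 normalized counts.

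On chromosome 5 the responses were more unequal. Gbp6 reached 16833 and 15441 normalized counts in sufficient and 17857 and 12345 in Ncoa6-KO cells, log2 fold changes over medium of 7.00 (SE 0.315) and 7.92 (SE 0.335). Gbp9 reached 18855 and 17727 against 16715 and 12828 (4.65, SE 0.207, and 5.57, SE 0.218). Gbp4 reached 4316 and 3329 against 3500 and 1790. The ratio of its summed counts to those in medium, scaled to library size, was 258-fold in sufficient cells (exact 95% interval 187 to 366) and 1378-fold in Ncoa6-KO cells (590 to 4247), intervals that cover counting error only.

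Gbp8 stood apart as the weakest responder. It reached 175 and 211 normalized counts in sufficient cells, 4.17-fold over medium (log2 fold change 2.06, SE 0.295, adjusted p = 0.000109), and 170 and 128 in Ncoa6-KO cells, 6.70-fold (2.74, SE 0.325, adjusted p = 2.63e-05). The 7 other members had log2 fold changes of 4.65 or more in sufficient cells. Its rise ranked 1893rd of all tested genes in sufficient cells, where the ranks of the others lay between 53 and 508.

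**Figure D3:**
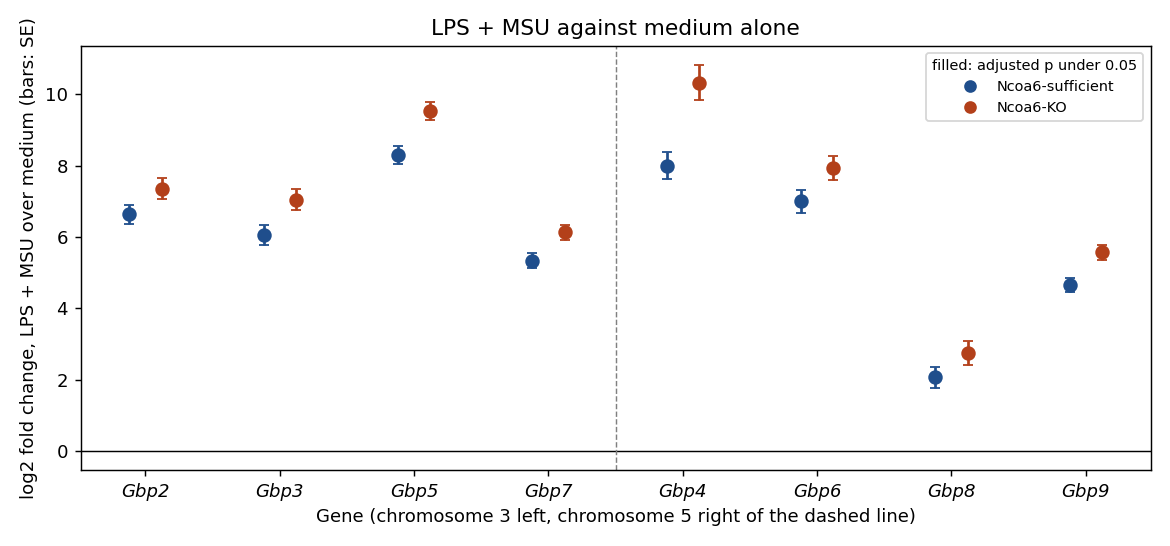
log2 fold change of each member, LPS + MSU over medium, in Ncoa6-sufficient and Ncoa6-KO cells. Bars are SEs from the edgeR fit, and all points passed the adjusted p of 0.05. Gbp8 lies lowest at 2.06 and 2.74, and the Ncoa6-KO point lies above the sufficient point for each gene.

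The order of levels per length also changed with stimulation. In sufficient cells under LPS + MSU, Gbp2 had 35277 ± 5907 normalized counts per kilobase (SD, n = 2), Gbp5 20186 ± 2427, Gbp3 12593 ± 810, Gbp6 6197 ± 378, Gbp9 4175 ± 182, Gbp7 3160 ± 200.0, Gbp4 842 ± 154 and Gbp8 78.5 ± 10.4. No neighbours in this order overlapped, and the order was the same in Ncoa6-KO cells, again without overlap. Gbp5, below Gbp3, Gbp9 and Gbp7 in medium, stood above them here, and Gbp4 passed Gbp8. With the summed length of all annotated exons in place of the longest coding transcript, the libraries of Gbp3 and Gbp5 overlapped in both genotypes and Gbp6 fell below Gbp9 and Gbp7, so these places depended on the length used.

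The balance of the clusters shifted in the same direction in both genotypes. The chromosome 3 members summed to 5.48 and 5.01 times the chromosome 5 members in the stimulated sufficient libraries and to 4.55 and 5.39 times in the stimulated Ncoa6-KO libraries. All 4 values lay above the 4 values in medium, of which the highest was 2.34. This ratio is one of counts and not of levels per length, and Gbp2 and Gbp5 made up most of the chromosome 3 sum in every library. Sufficient and Ncoa6-KO libraries overlapped in it under LPS + MSU.

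**Figure D4:**
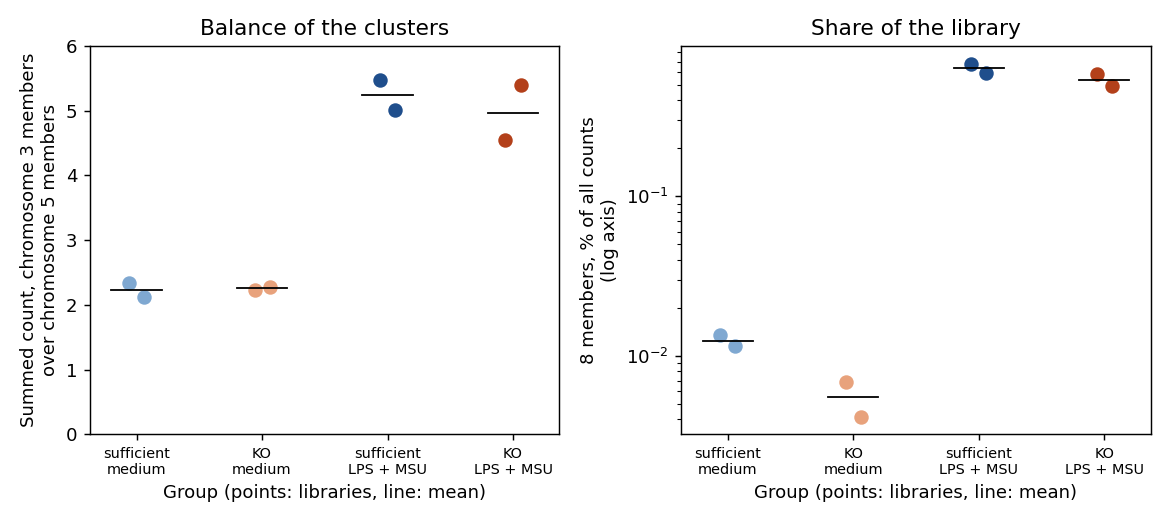
Left, summed normalized count of the chromosome 3 members divided by that of the chromosome 5 members in each library. Right, the 8 members as a percentage of all counts, on a log axis. Points are libraries and lines are means of 2. The ratio lies between 2.11 and 2.34 in medium and between 4.55 and 5.48 under LPS + MSU.

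The next question was whether the stimulated level differed by genotype. All 8 members had lower estimates in Ncoa6-KO than in sufficient cells under LPS + MSU, from -0.53 for Gbp4 to -0.10 for Gbp6 on the log2 scale, but 0 of 8 were called by edgeR, where 1.63% of all tested genes were called lower. At an unadjusted p under 0.05 there was 1 member, Gbp4, beside 17.4% of all tested genes. DESeq2 and limma-voom called 0 members. The medians were -0.28 on chromosome 3 and -0.34 on chromosome 5, beside 0.00 over all tested genes. Gbp2 had the estimate nearest the threshold after Gbp4, -0.45 (95% confidence interval -0.91 to 0.02, adjusted p = 0.313). For Gbp5 the interval was -0.62 to 0.15 and for Gbp6 it was -0.61 to 0.42, so that differences within these bounds remained compatible with the data. For Gbp4 and Gbp6 the libraries of the genotypes overlapped, and for the other 6 they did not. An exact two-sided permutation test of 2 libraries against 2 cannot go below p = 0.333 for such a gene. The share of all tested genes without overlap was not computed. Without Ncoa6-KO library 1 of LPS + MSU, Gbp4 was called (-1.11, adjusted p = 0.0105).

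Whether the genotype difference itself changed with stimulation was tested as the difference between the effects of the knockout in the 2 conditions. Every member had a positive estimate, meaning a smaller deficit under LPS + MSU, and the values ran from 0.68 for Gbp8 to 2.33 for Gbp4 with a median of 0.92. None of the 8 was called by edgeR without a replicate block, and 0% of all tested genes were. At an unadjusted p under 0.05 there were 6 of 8 members and 1045 genes, 5.93% of those tested. Gbp5 had the lowest p of the 8 (1.23, SE 0.291, adjusted p = 0.437), and DESeq2 called it (adjusted p = 0.00105) among 45 genes while limma-voom called none. EdgeR fits with no filter or with the replicate number as a block, given at the end, called more members here and under LPS + MSU. The blocked fits also called more of all tested genes, 86 and 444 for the change of effect. The labels do not tie the replicate numbers to mice. Without Ncoa6-KO library 1 in medium, edgeR called Gbp5 (1.78, adjusted p = 0.0448). The larger folds over medium in Ncoa6-KO cells share their medium libraries with the deficit in medium and are not a separate result.

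The other Gbp genes rose from almost nothing. Gbp10 had 0 counts after rounding in all 4 medium libraries and 211 and 239 normalized counts in stimulated sufficient and 165 and 198 in stimulated Ncoa6-KO libraries, at least 93.2-fold and 77.0-fold higher against a floor of 3 counts per library. It shared 73.5% of its 100-base stretches with another gene. Gbp11 had 1 count in sufficient and 3 in Ncoa6-KO cells in medium, and 350 and 375 normalized counts in stimulated sufficient and 326 and 233 in stimulated Ncoa6-KO libraries. Gbp2b had 49.9 and 24.8 in stimulated sufficient and 20.9 and 16.8 in stimulated Ncoa6-KO libraries, with 0 counts in sufficient and 1 in Ncoa6-KO cells in medium. No fold between genotypes in medium could be given for these 3.

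The pathway upstream of the family was examined through 17 listed genes, of which 16 were tested. Among ligands, Ifnb1, which encodes interferon beta, had 1 or 2 counts in each medium library and 334 and 253 normalized counts in stimulated sufficient against 204 and 157 in stimulated Ncoa6-KO libraries (log2 fold change -0.70, SE 0.198, adjusted p = 0.0867). Ifng, which encodes interferon gamma, had at most 1 count in any library and was not tested. The receptor genes Ifnar1, Ifnar2, Ifngr1 and Ifngr2 and the kinase genes Jak1, Jak2 and Tyk2 were not called between genotypes in either condition by edgeR, though DESeq2 called Ifnar1 lower in Ncoa6-KO cells under LPS + MSU. All but Ifngr1 were called higher under LPS + MSU in sufficient cells, where 24.7% of all tested genes were. Ifngr1 was called lower there (log2 fold change -1.29).

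Among the transcription factors, Stat2 was called lower in medium, the 1 edgeR call of the 16, beside 1.3% of all tested genes. It had 4150 and 3951 normalized counts in sufficient and 2934 and 1968 in Ncoa6-KO libraries (log2 fold change -0.72, SE 0.157, adjusted p = 0.0464). The genotypes did not overlap. The median over the list was -0.19, and 7 of the 16 had an unadjusted p under 0.05, where 12.8% of all tested genes did. Stat2 was also called lower in medium by DESeq2 and by limma-voom, and DESeq2 called Irf1 and Irf9 lower there. Under LPS + MSU 0 of 16 were called, with a median of -0.12, and DESeq2 called Ifnar1 alone. There 6 genes had an unadjusted p under 0.05, where 17.4% of all tested genes did. Irf8 had 8885 and 5113 against 4181 and 2551 (-1.06, SE 0.259, adjusted p = 0.0528).

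The immunity-related GTPases, smaller interferon-induced GTPases that act with GBPs at pathogen vacuoles, had values nearest to those of the members. In medium 4 of 10 were called lower, beside 1.3% of all tested genes, and none higher. The median of the 10 was -1.34. An unadjusted p under 0.05 was found for 8 of the 10 and for 12.8% of all tested genes. The called genes were Tgtp2 (-1.65, adjusted p = 0.00365), Gm12250 (-1.50, 0.0171), Ifi47 (-1.05, 0.0363) and Igtp (-0.86, 0.0354). Tgtp2 had 456 and 367 normalized counts in sufficient and 155 and 104 in Ncoa6-KO libraries. Iigp1 had 134 and 86.9 against 50.7 and 21.1 (-1.58, adjusted p = 0.102). All 10 were called higher under LPS + MSU in each genotype, where 24.7% (sufficient) and 25.2% (Ncoa6-KO) of all tested genes were. The medians of the 10 were 4.77 in sufficient and 5.99 in Ncoa6-KO cells. Under LPS + MSU 0 of 10 were called between genotypes, none by DESeq2 or limma-voom, with a median of -0.28. An unadjusted p under 0.05 was found for 2 of them and for 17.4% of all tested genes.

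Genes that act with or after GBPs were measured in 3 further lists. Of 8 inflammasome genes, 0 were called between genotypes in medium, with a median of -0.22. An unadjusted p under 0.05 was found for 4 of them and for 12.8% of all tested genes. Casp4, which encodes the caspase that senses LPS in the cytosol, had a log2 fold change of -0.44 (adjusted p = 0.149), and Gsdmd, which encodes the pore-forming gasdermin D, -0.43 (adjusted p = 0.0929). DESeq2 called Gsdmd lower and limma-voom called none. Under LPS + MSU 0 of 8 were called, and 2 had an unadjusted p under 0.05, beside 17.4% of all tested genes. Pycard, the adaptor gene, had the lowest adjusted p there (-0.64, 0.0579) and was called by DESeq2. With stimulation 7 of 8 were called higher in each genotype, where 24.7% (sufficient) and 25.2% (Ncoa6-KO) of all tested genes were. Among them were Nlrp3 (4.09 in sufficient cells) and Casp1 (2.86). The remaining gene, Pycard, was not called in sufficient cells (0.04) and was called lower in Ncoa6-KO cells (-0.48).

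None of the 5 genes of protein prenylation, the lipid modification that Gbp2 and Gbp5 undergo, was called between genotypes in either condition, none had an unadjusted p under 0.05, and DESeq2 and limma-voom called none. Their medians were -0.08 and -0.10. Of the 9 genes of ATG8 conjugation, a pathway that steers GBPs to pathogen vacuoles, 0 were called in medium, and DESeq2 and limma-voom called none. There 1 had an unadjusted p under 0.05, beside 12.8% of all tested genes. Under LPS + MSU Gabarapl1, an ATG8 gene, was called higher in Ncoa6-KO cells (log2 fold change 0.57, adjusted p = 0.0377), also by DESeq2 but not by limma-voom. It had 1029 and 1161 normalized counts in sufficient and 1585 and 1668 in Ncoa6-KO libraries.

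**Figure D5:**
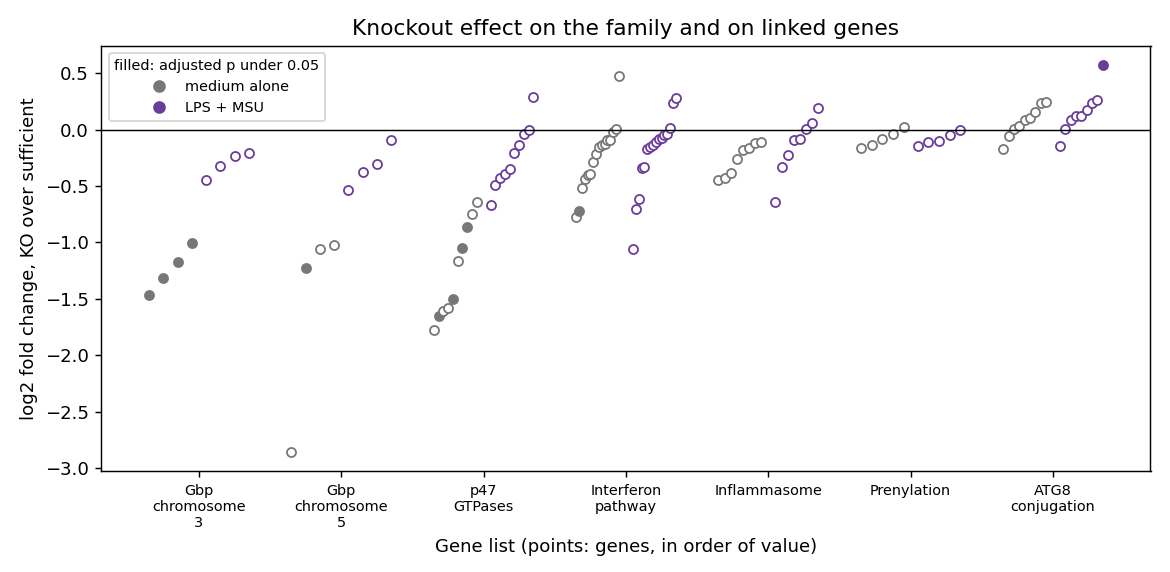
log2 fold change, Ncoa6-KO over Ncoa6-sufficient, of each tested gene of the family and of 5 linked lists, in medium and under LPS + MSU. Points are genes in order of value, and filled points passed the adjusted p of 0.05. In medium the medians of the chromosome 3 members, the chromosome 5 members and the immunity-related GTPases (labelled p47 GTPases) were -1.24, -1.14 and -1.34, and those of the other lists were between -0.22 and 0.09.

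No gene next to the clusters was called between genotypes in medium. Of 18 other annotated genes within 200 kb of a cluster that had a row in the table, 12 were tested. In medium 0 were called between genotypes, none by DESeq2 or limma-voom, and the median was 0.02. An unadjusted p under 0.05 was found for 1, beside 12.8% of all tested genes. Pkn2, beside the chromosome 3 cluster, had 900 and 895 normalized counts in sufficient and 950 and 861 in Ncoa6-KO libraries. Abcg3, beside the chromosome 5 cluster, had 455 and 457 against 509 and 439. Under LPS + MSU 1 neighbour, Lrrc8c, was called lower in Ncoa6-KO cells, with 5549 and 4948 against 3734 and 2814 (log2 fold change -0.68, adjusted p = 0.0189). The difference between neighbours and members was not tested.

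Across the 8 libraries the members followed one another closely, and all such values share the split between stimulated and unstimulated libraries. Pearson's r of log2 CPM between pairs ran from 0.955 (Gbp5 with Gbp8) to 0.9998 (Gbp5 with Gbp7). After the group means were taken out, r over the same libraries was 0.991 for Gbp5 with Gbp7, 0.990 for Gbp3 with Gbp6 and 0.327 for Gbp4 with Gbp8, where Gbp4 rests on few counts in medium. The remainders of the 2 libraries of a group mirror each other, so each such r rests on 4 independent values. Pairs on different chromosomes were among the highest as well as the lowest. Of 11199 other genes ranked, those most like the mean of the members by r were Isg20, Parp9, Phf11d, Adar and Irgm1, each at 0.999 or above over the 8 libraries. These 5 were chosen for their likeness over the same libraries, so their log2 fold changes in medium, Ncoa6-KO over sufficient, are a description with no test: -1.25 for Isg20, -0.74 for Parp9, -0.96 for Phf11d, -0.49 for Adar and -0.75 for Irgm1.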

How the data were processed

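Total RNA of 8 BMDM cultures was made into stranded poly(A) libraries and sequenced in read pairs. The authors aligned reads with STAR 2.7.3a and estimated counts per gene with RSEM 1.3.3 on GRCm38, release 101. The deposited values were expected counts, not normalized. They were rounded, a minimum sum of 10 counts was required, and the remaining 17625 genes were tested with edgeR 4.0.16 in R 4.3.3 (TMM, quasi-likelihood fit of 4 group means, Benjamini-Hochberg adjustment over all tested genes, threshold 0.05). SEs were the log2 fold change over the square root of F. Normalized counts are counts at an effective library size of 29332189, the mean of the 8. TMM factors ran from 0.766 to 1.29. Nothing in the labels shows that replicate numbers mark the same mouse.

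Alternatives used DESeq2 1.42.0, limma 3.58.1, other filters and scalings, a replicate block, the compared libraries alone, and each library left out. Transcript lengths and shared 100-base stretches came from GENCODE's GRCm38 annotation. Named genes were the members, relatives, Ncoa6, called genes of 5 lists and all genes of the first 3, neighbours within 200 kb and the 5 genes most alike. Members and lists were chosen with earlier results of these data known. The edgeR script was checked on simulated data. Intervals of count ratios were exact binomial intervals at 95%. The values of 1 gene of the interferon list are not reported here.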

Additional observations from a re-analysis of the deposited data

How the results depend on the processing

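The rise of all 8 members under LPS + MSU passed in both genotypes under every alternative tried, and the cluster medians kept their direction in all 4 comparisons. Of all 8 members, 5 were called lower in medium, and the number was also 5 with DESeq2 size factors, filterByExpr or limma-voom, 6 with DESeq2, 4 with the compared libraries alone and 8 with no filter. With a library of medium left out the number went both up and down, as did the number called over all tested genes. The calls of the members were lost without sufficient library 1 or 2 of medium. These fits take a lone library to vary like the other groups. The cluster medians in medium then ran from -1.71 to -0.91 on chromosome 3 and from -1.87 to -0.76 on chromosome 5, with both ends set by the Ncoa6-KO medium libraries. The medians of the rise in Ncoa6-KO cells ran from 6.87 to 7.67 and from 6.38 to 7.34. For Ncoa6 in medium, log2 fold changes ran from -1.23 to -0.90, and adjusted p reached 0.0578 without sufficient library 1 of medium. Its change of effect between conditions ran from -0.28 to 0.0494.

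Under LPS + MSU the count of members called lower went from 0 to 2 with no filter and from 0 to 1 over the fits that left out a library. For the change of effect between conditions it went from 0 to 1 with DESeq2, to 7 with no filter and from 0 to 1 over the fits that left out a library. With no filter, edgeR estimated an infinite prior degree of freedom, so that fit used no spread of a gene's own. It called 1152 of 24645 genes between genotypes in medium, 1611 under LPS + MSU and 269 for the change of effect. Gbp6 under LPS + MSU ran from -0.40 to 0.14 with a library left out, the upper end without Ncoa6-KO library 2. DESeq2 size factors moved the median of all genes under LPS + MSU in sufficient cells by 0.11, and changed no count of members. The ISRE count of 4 genes was the same with the further A.

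With the replicate number as a block across all groups, 7 members were called in medium, 2 under LPS + MSU and 4 for the change of effect. Over all 17625 tested genes, 1023, 1532 and 86 were called in either direction, against 331, 632 and 0 without a block. With the block within each genotype the counts of members were 7, 1 and 7, beside 1530, 2000 and 444 of all tested genes. In that fit Gbp6 and Gbp8 under LPS + MSU had reversed estimates of 0.11 and 0.0100. The deviations of same-numbered libraries had r of 0.310 and 0.369 within the genotypes and 0.052 to 0.199 between them, but the labels do not tie the numbers to mice, so the blocked fits share only a number. The causes of these changes were not tested. Depth limited Gbp4 in medium, with 5 counts in the 2 Ncoa6-KO libraries.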
